A study of Mus musculus with 8 samples.

Results

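The genes described here encode 35 enzymes, regulators and carriers of cholesterol and fatty acid synthesis. They were chosen by symbol, as the rows of the deposited expression table that bear these 35 names, out of 24787 rows in all. All 35 were found, and all 35 passed the filter on low values, which 11715 genes passed. RNA was measured in 4T1 cells, a line from a mouse mammary tumour, in 4 libraries labelled shEtv5 and 4 labelled shcontrol. The shEtv5 cells carry a short hairpin RNA against Etv5, an ETS-family transcription factor, and the shcontrol cells carry a control hairpin, with their genotype labelled WT. Each group's libraries share 1 construct name, so each group is taken as 1 hairpin. The labels do not say whether the replicates were separate cultures or how the cells were selected. All p-values therefore measure the spread between these libraries, which may be technical.

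Cells make cholesterol from acetyl-CoA. The mevalonate arm builds isoprenoid units and joins them into farnesyl diphosphate, 2 of which are joined head to head into squalene. Squalene is then oxidised and folded into lanosterol, and a series of membrane-bound enzymes trims lanosterol to cholesterol. Fatty acid synthesis draws on the same acetyl-CoA, which is carboxylated, condensed into long chains, elongated and desaturated. Both routes are controlled by the SREBP transcription factors, which are held in the endoplasmic reticulum by SCAP and INSIG proteins when sterols are plentiful and released when sterols run low. SREBPs act on promoters together with NF-Y, which binds the CCAAT box.

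Promoter sequence bears on this group because both routes are under that control, which was not tested for single members. Windows from 250 bases before to 50 bases after the start were available for 28 of the 35 genes in RefSeq, on build GRCm38.p6. Some genes have windows at more than 1 start, and a gene was counted if any of its windows held the letters. The letters CCAAT, on either strand, were present in 22 of the 28 genes (78.57%), against 41.06% of 27025 genes in the same table. The letters TCACNCCAC, a form of the SREBP site, were in 1 of the 28 (3.571%), Hmgcs1, against 1.436% of genes. The E-box CACGTG was in 5 of the 28 (17.86%), against 8.093% of genes. The letters CCGGAAGT, a form of the ETS site, were in 1 of the 28 (3.571%), Insig2, against 4.307% of genes. No motif contains another, and all were read on both strands. The 27025 genes were not limited to those that passed the filter on low values, as the members did. The number of windows per gene was not matched either. Each match describes letters and is no evidence of binding. The stretches below are shown because they carry the CCAAT letters (in capitals) of 3 of the genes that passed the test below, and of 4 others of the same routes, with their place in the genome. All run 5′ to 3′.
Idi1, chr13:8885549-8885577, minus strand: tgcccgggctcgCCAATcagctggaggca
Cyp51, chr5:4104710-4104738, minus strand: cgctgtccgccaCCAATctggtcctgaga
Msmo1, chr8:64733617-64733645, minus strand: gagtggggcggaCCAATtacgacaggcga
Lss, chr10:76531531-76531559, minus strand: atgcgagctcggCCAATcagagcatcacc
Hsd17b7, chr1:169969262-169969290, plus strand: gcgttaggcccgCCAATcgcgactcggca
Insig1, chr5:28071184-28071212, minus strand: aggccgccggagCCAATgggaggagggcg
Fasn, chr11:120824590-120824618, plus strand: tccacatcgaaaCCAATtggacaccgagg
The Hmgcs1 stretch carries the SREBP letters in capitals.
Hmgcs1, chr13:119690204-119690232, plus strand: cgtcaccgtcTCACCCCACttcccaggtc
For each gene, the CCAAT match nearest the start was printed, among those whose stretch lay wholly before the start. The printed CCAAT letters lie between 29 and 73 bases before the start in 6 of the 7 genes, and 216 bases before it in Insig1. Closeness to the start thus follows in part from that choice, and some of these genes hold further matches. No window of Fads2, another gene that passed the test, holds CCAAT, and neither does any window of Acaca, Elovl6, Acat2, Scap or Lpin1.

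Each value behaves like the average read coverage over the bases of a gene after scaling to library depth, as read from the values and column headers. It is called a coverage value here and is taken to be already per length. The table holds no counts, so read depth is unknown. The sum of all values lay between 254438 and 308048 in 7 of the libraries. In shEtv5 replicate 3 it was 390269, with 13901 genes above 0 against 15105 to 15356 in the others. Ribosomal protein genes took 21.7% of the sum in shEtv5 replicate 3 and between 7.86% and 11.9% in the others. Along the first principal component, 81.9% of the variance, shEtv5 replicate 3 sat at 93.3 and the next library, shcontrol replicate 3, at 12.8. All tests were therefore run over all 8 libraries and again over 7, without shEtv5 replicate 3. Transcript length and GC content also moved with single libraries. In deviations from the median library across 11561 genes, Spearman's rho with length was -0.58 in shEtv5 replicate 3 and -0.62 in shcontrol replicate 3, and rho with GC content was -0.56 in shEtv5 replicate 2.

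Etv5 (chr16:22381309-22439719, minus strand, mm10) had coverage values of 13.04, 11.2, 7.52 and 12.7 in shEtv5 libraries, against 15.2, 15.1, 11.7 and 14.4 in shcontrol libraries. Here and below, a group's 4 values follow replicates 1 to 4. The groups overlapped, since the lowest shcontrol library lay below 2 shEtv5 libraries. The log2 fold change was -0.33 over 8 libraries and -0.17 over 7, with adjusted p of 0.818 and 0.422 by limma. Etv5 thus did not separate the libraries by label, and a predicted gene, Gm4798, shares 26.8% of its 50-base stretches. Directions below are between libraries as labelled. Of 10 epithelial markers, 9 exceeded a value of 1, with summed values of 1371 to 3205 in shEtv5 and 1345 to 1829 in shcontrol libraries; the basal keratin Krt5 was near 0. The adipocyte markers, of interest because fat cells use these routes, summed to at most 0.0129 in shEtv5 and 0.183 in shcontrol libraries, with Adipoq, Lep and Cidec at 0 throughout. Endothelial markers summed to at most 0.125 in shEtv5 and 0.0502 in shcontrol libraries. Of 10 leukocyte markers, Cd3e and Adgre1 were at 0 and the sums were 2.93 to 3.43 in shEtv5 and 3.02 to 4.58 in shcontrol libraries. Of 6 fibroblast markers, Dcn and Lum were at 0, and the sum, mostly Pdgfra at 0.519 to 2.15 in shEtv5 and 2.54 to 3.54 in shcontrol libraries, was 0.641 to 2.55 in shEtv5 and 2.71 to 3.60 in shcontrol libraries. The last list was lower in every shEtv5 library, and its part in the results was not tested.

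With shEtv5 replicate 3 left out, 5 of the 35 genes rose in shEtv5 libraries and none fell. The risers were Idi1 of the mevalonate arm, Sqle, Cyp51 and Msmo1 of the steps from squalene onward, and the fatty acid desaturase Fads2. They rose by 1.44 to 1.74 times, as ratios of group means. The 5 genes are 14.3% of the group, against 1.08% of all tested genes called higher and 2.06% called lower by limma at an adjusted p under 0.05. Across the group, 28 of 35 genes had a positive log2 fold change, and the median was 0.26, against -0.0029 for all tested genes. In 17 genes (48.6%) every one of the 3 shEtv5 libraries lay above every shcontrol library, which held for 9.77% of all tested genes. In 1 gene (2.86%), Me1, every shEtv5 library lay below, which held for 10.4% of all. At an unadjusted p under 0.05, limma put 17 members higher, against 8.38% of all genes, and none lower.

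Over all 8 libraries, none of the 35 genes passed. Of all tested genes, 0.00854% were then called higher and 0.487% lower. At an unadjusted p under 0.05 limma put 2 members higher, Msmo1 and Cyp51, against 1.11% of all genes. The median log2 fold change of the group was 0.05, against -0.11 for all tested genes. It was -0.01 after scaling the libraries to equal sums, and it stood 0.17 above the median of all genes under both scalings. Groups did not overlap in 2 members with higher values, Fdft1 and Msmo1, against 1.52% of all genes, and in 1 with lower values, Me1, against 7.59% of all genes. RNA was taken from whole cultures, so fewer cells of a kind and less RNA per cell cannot be told apart.

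The number of genes called over 7 libraries depended on single libraries. It was 1 without shEtv5 replicate 1, without shEtv5 replicate 4 or without shcontrol replicate 2, and 2 without shEtv5 replicate 2 or without shcontrol replicate 1. It was 12 without shcontrol replicate 3 and 5 without shcontrol replicate 4. The count over all tested genes moved with it: 127 were called higher over 7 libraries, 420 without shcontrol replicate 3, and between 11 and 66 without any other single library. Msmo1 was called in each of these 7 settings, with adjusted p between 0.000815 and 0.0361 by limma. Sqle lost its call without shEtv5 replicate 1 or 4 or shcontrol replicate 1 or 2, and Fads2 without shEtv5 replicate 1, 2 or 4 or shcontrol replicate 2. Idi1 and Cyp51 each lost it without shEtv5 replicate 1, 2 or 4 or shcontrol replicate 1 or 2. The highest adjusted p by limma among these settings was 0.105 for Sqle, 0.137 for Fads2, 0.149 for Idi1 and 0.139 for Cyp51, with log2 fold changes of at least 0.43 in each. Sqle and Msmo1 were also called with libraries scaled to equal sums or with no filter on low values. Under equal sums the adjusted p by limma was 0.0640 for Idi1, 0.0576 for Cyp51 and 0.0725 for Fads2, and with no filter it was 0.0544, 0.0627 and 0.0829.

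**Figure D1:**
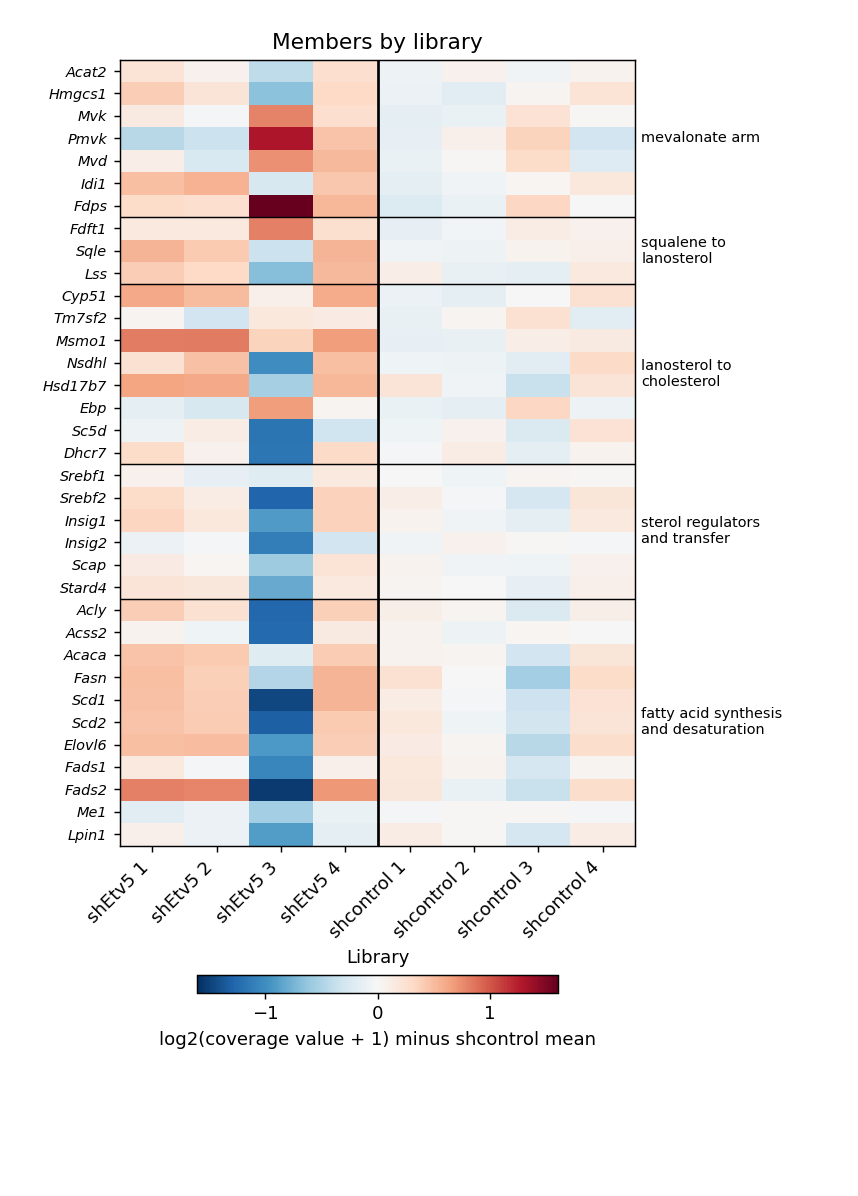
Rows are the 35 genes in pathway order and columns the 4 shEtv5 and then the 4 shcontrol libraries; colour is log2(coverage value + 1) minus the mean of the shcontrol libraries, red for higher and blue for lower. The column of shEtv5 replicate 3 is blue in 26 of the 35 genes, while the columns of shEtv5 replicates 1, 2 and 4 are red in 30, 24 and 31 genes.

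The mevalonate arm held 7 genes, of which 1 rose over 7 libraries. Idi1 encodes isopentenyl diphosphate isomerase, which interconverts the pair of isoprenoid building blocks (chr13:8885501-8892451, plus strand). Its coverage values were 14.01, 14.8, 8.02 and 13.5 in shEtv5 libraries, against 8.72, 9.32, 10.04 and 11.1 in shcontrol libraries. Replicates 1, 2 and 4 of shEtv5 lay above all shcontrol libraries, and replicate 3 lay below all of them. Without replicate 3, Idi1 averaged 14.1 ± 0.680 in shEtv5 libraries (SD, n = 3) and 9.80 ± 1.04 in shcontrol libraries (SD, n = 4), a 1.44-fold rise. On the log2 scale the rise was 0.49 ± 0.10 (SE), its 95% interval ran from 0.27 to 0.70, and limma gave an adjusted p of 0.0306. Over 8 libraries it was 0.30, with an adjusted p of 0.863. Of the 50-base stretches of Idi1, 30.5% occur elsewhere, 21.3% in the predicted gene Gm13502, so its level is uncertain to that extent.

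Fdps, farnesyl diphosphate synthase, which joins the isoprenoid units into the branch point of sterols and protein prenyl groups, was the member that stood highest in shEtv5 replicate 3 relative to the other shEtv5 libraries. It had 25.9, 25.4, 81.7 and 30.4 in shEtv5 libraries, against 17.7, 19.2, 26.6 and 20.8 in shcontrol libraries. Replicate 3 of shEtv5 stood far above all others, and the remaining values overlapped through shcontrol replicate 3. Without shEtv5 replicate 3, Fdps averaged 27.2 ± 2.78 in shEtv5 libraries (SD, n = 3) and 21.1 ± 3.88 in shcontrol libraries (SD, n = 4), with a log2 fold change of 0.37 and an adjusted p of 0.181 by limma. Over 8 libraries the log2 fold change was 0.76, with an adjusted p of 0.739. The adjusted p was 0.0120 by limma without shcontrol replicate 3. Exons of the predicted gene Gm43738 overlap 16.4% of its exons.

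Hmgcs1, the cytosolic HMG-CoA synthase that commits acetyl units to the arm, did not pass. It had 15.1, 13.1, 6.77 and 14.3 in shEtv5 libraries, against 10.5, 9.89, 11.7 and 13.2 in shcontrol libraries, and the groups overlapped by a small margin. Its log2 fold change over 7 libraries was 0.30, in a 95% interval of 0.06 to 0.55, and limma gave an adjusted p of 0.168. Acat2, the cytosolic acetoacetyl-CoA thiolase of the first step, had 28.8, 25.96, 18.3 and 29.7 in shEtv5 libraries, against 23.3, 25.90, 23.8 and 25.7 in shcontrol libraries. Without replicate 3 the Acat2 groups just failed to overlap, at a log2 fold change of 0.18 and an adjusted p of 0.282 by limma, and its paralog Acat3 shares 45.9% of its 50-base stretches. The kinases and the decarboxylase in the middle of the arm lay closest to 0, and their difference from its other genes was not tested. Mvk, mevalonate kinase, had a log2 fold change of 0.13, Pmvk, phosphomevalonate kinase, of -0.11, and Mvd, the decarboxylase, of 0.13 over 7 libraries, with adjusted p of 0.582, 0.822 and 0.731 by limma. The 95% intervals ran from -0.13 to 0.40 for Mvk, from -0.62 to 0.40 for Pmvk and from -0.28 to 0.53 for Mvd. Pmvk turned to 0.056 without shEtv5 replicate 1, and Mvd to -0.066 without shEtv5 replicate 4. In each of these 3 genes, shEtv5 replicate 3 was the highest of all 8 libraries, at 12.7, 15.3 and 8.03.

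All 3 enzymes from farnesyl diphosphate to lanosterol had higher values in each of the 3 remaining shEtv5 libraries than in any shcontrol library, and 1 of them passed. Such an order held for 9.77% of all tested genes. Sqle encodes squalene epoxidase, a flux-controlling oxygenase of the pathway (chr15:59315077-59331192, plus strand). Its coverage values were 21.8, 20.0, 11.3 and 21.8 in shEtv5 libraries, against 14.1, 13.8, 15.3 and 15.5 in shcontrol libraries. Again shEtv5 replicate 3 lay below all shcontrol libraries and the other 3 above them. Without it, Sqle averaged 21.2 ± 1.05 in shEtv5 libraries (SD, n = 3) and 14.7 ± 0.880 in shcontrol libraries (SD, n = 4), a 1.44-fold rise. This was 0.50 ± 0.08 (SE) on the log2 scale, in a 95% interval of 0.32 to 0.69, and limma gave an adjusted p of 0.0135. Over 8 libraries it was 0.29, with an adjusted p of 0.879. Only 0.045% of its 50-base stretches occur elsewhere.

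Fdft1, squalene synthase, had 10.5, 10.5, 17.04 and 11.3 in shEtv5 libraries, against 8.45, 8.997, 10.2 and 9.83 in shcontrol libraries. The groups did not overlap with or without shEtv5 replicate 3, which was the highest. Fdft1 had a log2 fold change of 0.34 over 8 libraries and of 0.19 over 7, with adjusted p of 0.783 and 0.299 by limma. Of its exons, 20.9% overlap those of Ctsb on the other strand, and the library kit does not mark strand. Ctsb, cathepsin B, had 32.9 in shEtv5 replicate 3, a mean of 40.5 in the other 3 shEtv5 libraries and a mean of 46.2 in shcontrol libraries, opposite in order to Fdft1. Lss, lanosterol synthase, which folds the ring system, had 3.71, 3.49, 1.24 and 4.14 in shEtv5 libraries, against 2.86, 2.31, 2.22 and 3.00 in shcontrol libraries. Without replicate 3 the Lss groups did not overlap, at a 1.45-fold higher mean in shEtv5 libraries and an adjusted p of 0.0837 by limma.

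Of the 8 enzymes from lanosterol to cholesterol, Cyp51 and Msmo1 rose over 7 libraries and none fell. Tm7sf2, Ebp and Sc5d, among the enzymes that act on double bonds of the sterol, had log2 fold changes of -0.04, -0.12 and -0.09. Their groups overlapped, with adjusted p of 0.896, 0.664 and 0.741 by limma. Their 95% intervals ran from -0.35 to 0.27 for Tm7sf2, from -0.42 to 0.18 for Ebp and from -0.40 to 0.21 for Sc5d. Dhcr7, another enzyme that acts on a double bond, had a positive log2 fold change of 0.22, in a 95% interval of -0.0016 to 0.45. Tm7sf2 turned to 0.089 without shEtv5 replicate 2, and Sc5d to 0.021 without shEtv5 replicate 4. The difference between these genes and those that rose was not tested.

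Msmo1 encodes the methyl sterol oxidase that starts removal of the paired methyl groups from the sterol ring (chr8:64718139-64733792, minus strand). Over 7 libraries its log2 fold change was the largest of the 35 genes at the pseudocount of 1. With a pseudocount of 0.1, and as a ratio of means, Hsd17b7 changed more, at 0.88 on the log2 scale and 1.83-fold, but did not pass. Msmo1 had coverage values of 36.5, 37.1, 26.2 and 33.0 in shEtv5 libraries, against 18.4, 18.7, 21.95 and 22.5 in shcontrol libraries. All 4 shEtv5 libraries lay above all 4 shcontrol libraries, replicate 3 included. Without replicate 3, Msmo1 averaged 35.5 ± 2.20 in shEtv5 libraries (SD, n = 3) and 20.4 ± 2.13 in shcontrol libraries (SD, n = 4), a 1.74-fold rise. In log2 terms it rose by 0.77 ± 0.10 (SE), in a 95% interval of 0.55 to 1.00, and limma gave an adjusted p of 0.00362. Over 8 libraries it was 0.67, with an adjusted p of 0.166 by limma, which fell to 0.0285 with median-of-ratios scaling and to 0.00837 with each library's length trend removed.

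Cyp51 encodes lanosterol demethylase, the target of azole inhibitors (chr5:4081145-4104746, minus strand). It had coverage values of 8.48, 7.80, 5.55 and 8.40 in shEtv5 libraries, against 4.804, 4.62, 5.22 and 6.35 in shcontrol libraries. Replicate 3 of shEtv5 fell within the range of the shcontrol libraries and the other 3 lay above it. Without replicate 3, Cyp51 averaged 8.23 ± 0.373 in shEtv5 libraries (SD, n = 3) and 5.25 ± 0.778 in shcontrol libraries (SD, n = 4), a 1.57-fold rise. Its rise was 0.57 ± 0.11 (SE) on the log2 scale, in a 95% interval of 0.32 to 0.81, at an adjusted p of 0.0273 by limma. Over 8 libraries it was 0.45, with an adjusted p of 0.581, which was 0.0406 with the length trend removed.

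Nsdhl and Hsd17b7, the dehydrogenase and the keto reductase that complete the demethylation begun by Msmo1, did not pass. Hsd17b7 had 2.63, 2.56, 0.630 and 2.38 in shEtv5 libraries, against 1.71, 1.26, 0.837 and 1.70 in shcontrol libraries. Without replicate 3 its groups did not overlap, and its mean was 1.83-fold higher in shEtv5 libraries, with an adjusted p of 0.0618 by limma. It passed in 5 of 17 alternative settings over 7 libraries, among them without shcontrol replicate 3, at an adjusted p of 0.0207 by limma. It is also the member with the lowest level in shcontrol libraries, so the pseudocount of 1 compresses its log2 fold change to 0.59. Nsdhl had 5.21, 6.27, 1.64 and 6.33 in shEtv5 libraries, against 4.02, 3.97, 3.67 and 5.48 in shcontrol libraries, with an adjusted p of 0.133 by limma over 7 libraries. Dhcr7, which makes cholesterol from its immediate precursor, had 12.5, 10.5, 3.94 and 12.7 in shEtv5 libraries, against 9.82, 10.9, 8.97 and 10.4 in shcontrol libraries. The Dhcr7 groups overlapped, with an adjusted p of 0.269 by limma over 7 libraries.

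**Figure D2:**
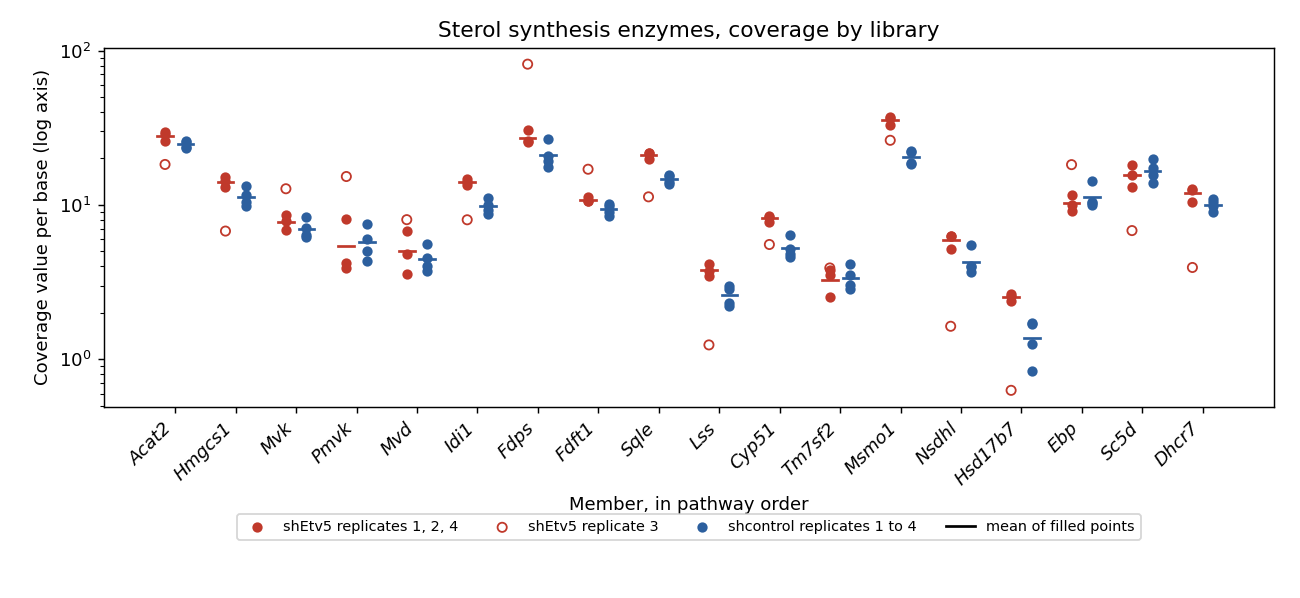
Coverage value per base (log axis) of the 18 sterol synthesis enzymes in pathway order; red points are shEtv5 libraries, with replicate 3 as an open circle, blue points are shcontrol libraries, and short lines are means of the filled points. Filled red points lie above all blue points in 8 of the 18 genes, among them Idi1, Sqle, Cyp51 and Msmo1. This order held for 9.77% of all tested genes.

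None of the 6 sterol regulators and carriers passed, with or without shEtv5 replicate 3, and their median log2 fold change was 0.15 over 7 libraries, with 5 positive. Over 8 libraries the median was -0.06 and none of the 6 was positive. Srebf2, which encodes the SREBP isoform that mainly drives sterol genes, had 24.4, 21.6, 7.61 and 25.7 in shEtv5 libraries, against 21.3, 19.2, 16.3 and 22.7 in shcontrol libraries. Its groups overlapped, and over 7 libraries limma gave a log2 fold change of 0.26, in a 95% interval of -0.01 to 0.53, and an adjusted p of 0.278. Srebf1, whose isoforms mainly drive fatty acid genes, had 24.04, 20.9, 20.0 and 25.6 in shEtv5 libraries, against 22.8, 21.8, 23.7 and 23.3 in shcontrol libraries. Its log2 fold change was 0.03, in a 95% interval of -0.17 to 0.23, at an adjusted p of 0.877 by limma, and it was -0.031 without shEtv5 replicate 4.

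Insig1 and Insig2 encode the retention proteins of the SREBP complex, and Insig1 is itself an SREBP target. Insig1 had 16.1, 14.1, 6.13 and 16.3 in shEtv5 libraries, against 12.9, 11.9, 11.1 and 13.9 in shcontrol libraries. Insig2 had 12.6, 13.1, 5.71 and 10.7 in shEtv5 libraries, against 12.9, 14.2, 13.7 and 13.3 in shcontrol libraries. Without replicate 3 the Insig1 values were all higher in shEtv5 libraries, at a log2 fold change of 0.29 and an adjusted p of 0.149 by limma, whereas the Insig2 values overlapped, at -0.15 and 0.420. Scap, the escort that carries SREBP to the Golgi, had a log2 fold change of 0.13 with an adjusted p of 0.452 by limma over 7 libraries. Stard4, a soluble sterol carrier, had 5.46, 5.34, 2.19 and 5.26 in shEtv5 libraries, against 4.77, 4.62, 4.11 and 4.91 in shcontrol libraries. Its 3 remaining shEtv5 values stood just above the shcontrol values, with an adjusted p of 0.304 by limma.

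Of the 11 fatty acid genes, 1 rose over 7 libraries, where their median log2 fold change was 0.43 and 9 were positive. Over 8 libraries none passed, the median was -0.01 and 4 were positive, with shEtv5 replicate 3 the only library added. Fads2 encodes the desaturase that acts first in the synthesis of polyunsaturated fatty acids (chr19:10062765-10101746, minus strand). Its coverage values were 33.1, 32.7, 5.76 and 30.5 in shEtv5 libraries, against 21.1, 17.2, 14.2 and 22.8 in shcontrol libraries. Replicate 3 of shEtv5 was the lowest of all 8 libraries and its other replicates the 3 highest. Without replicate 3, Fads2 averaged 32.1 ± 1.40 in shEtv5 libraries (SD, n = 3) and 18.8 ± 3.86 in shcontrol libraries (SD, n = 4), a 1.71-fold rise. On the log2 scale Fads2 rose by 0.76 ± 0.14 (SE), in a 95% interval of 0.43 to 1.08, at an adjusted p of 0.0268 by limma. Over 8 libraries it was 0.19, with an adjusted p of 0.918, and it was -0.018 with shEtv5 replicate 1 left out of the 8.

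Its neighbour Fads1, the next desaturase of that route, did not pass. Fads1 had 22.4, 19.8, 9.19 and 21.2 in shEtv5 libraries, against 22.5, 20.9, 16.4 and 20.8 in shcontrol libraries, with overlapping groups. Its log2 fold change over 7 libraries was 0.07, in a 95% interval of -0.18 to 0.32, at an adjusted p of 0.757 by limma, and it was -0.018 without shcontrol replicate 3. The intervals of Fads2 and Fads1 did not overlap, and the difference between them was not tested.

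The core enzymes of saturated and monounsaturated fatty acid synthesis had similar patterns and did not pass over 7 libraries. Acly, ATP-citrate lyase, the source of cytosolic acetyl-CoA, had 54.4, 49.0, 16.7 and 53.8 in shEtv5 libraries, against 44.03, 42.5, 35.02 and 44.2 in shcontrol libraries. Acaca, acetyl-CoA carboxylase, the committed step, had 8.97, 8.68, 5.33 and 8.65 in shEtv5 libraries, against 6.55, 6.49, 4.89 and 7.29 in shcontrol libraries. Fasn, fatty acid synthase, had 61.1, 56.9, 31.2 and 64.3 in shEtv5 libraries, against 52.1, 43.7, 29.6 and 53.8 in shcontrol libraries. In all 3 genes the remaining shEtv5 libraries lay above every shcontrol library, and shcontrol replicate 3 was the lowest of its group. Their means were 1.26-fold, 1.39-fold and 1.36-fold higher in shEtv5 libraries, with adjusted p of 0.118, 0.0911 and 0.211 by limma. Of the Acaca stretches, 52.6% occur in the predicted gene Gm5182.

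The stearoyl-CoA desaturases, which make monounsaturated chains, and the elongase Elovl6 showed the same order. Scd2 had the highest level of the 35 genes, with 161, 154, 46.6 and 156 in shEtv5 libraries, against 130.5, 111, 94.4 and 134 in shcontrol libraries. Scd1 had 9.45, 8.95, 1.74 and 9.96 in shEtv5 libraries, against 7.21, 6.40, 5.01 and 7.89 in shcontrol libraries. Elovl6 had 11.7, 11.9, 3.85 and 11.0 in shEtv5 libraries, against 8.97, 8.39, 5.71 and 10.1 in shcontrol libraries. Each was higher in the 3 remaining shEtv5 libraries than in any shcontrol library, and replicate 3 was the lowest of all 8. Over 7 libraries the log2 fold changes were 0.43, 0.47 and 0.46 for Scd2, Scd1 and Elovl6, with adjusted p of 0.116, 0.0961 and 0.148 by limma. Without shcontrol replicate 3, the adjusted p by limma was 0.0444 for Scd2, 0.0353 for Scd1, 0.0472 for Elovl6, 0.0473 for Acly and 0.0282 for Acaca, and Fasn did not pass, at 0.0798.

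Acss2, which makes acetyl-CoA from acetate, Me1, the malic enzyme that supplies NADPH, and Lpin1, a phosphatidate phosphatase and SREBP target, did not pass. Me1 had 6.50, 6.93, 4.8003 and 6.83 in shEtv5 libraries, against 7.34, 7.59, 7.59 and 7.30 in shcontrol libraries. All shEtv5 libraries lay below all shcontrol libraries for Me1, in contrast to the genes above. Its log2 fold change was -0.12 over 7 libraries and -0.23 over 8, with adjusted p of 0.430 and 0.861 by limma. Of the 50-base stretches of Me1, 32.8% occur elsewhere, 24.3% in the predicted gene Gm7049, so its level is uncertain to that extent. Acss2 had a log2 fold change of 0.04 (95% interval -0.16 to 0.25) and Lpin1 of -0.05 (95% interval -0.32 to 0.22) over 7 libraries, with overlapping groups and adjusted p of 0.824 and 0.857 by limma. Acss2 turned to -0.0071 without shEtv5 replicate 4, and Lpin1 to 0.023 with quantile normalization.

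**Figure D3:**
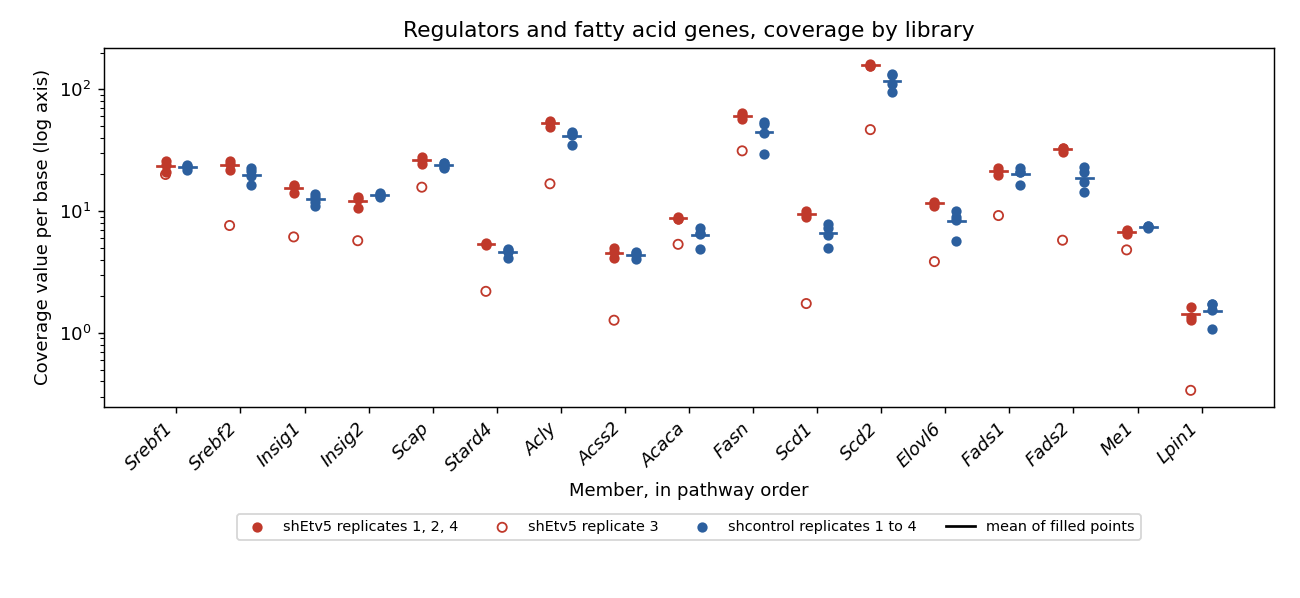
Coverage value per base (log axis) of the 6 sterol regulators and carriers and the 11 fatty acid genes; red points are shEtv5 libraries, with replicate 3 as an open circle, blue points are shcontrol libraries, and short lines are means of the filled points. Filled red points lie above all blue points in 2 of the 6 and 7 of the 11 genes, and below them in Me1. Of all tested genes, 9.77% had the first order and 10.4% the second.

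**Figure D4:**
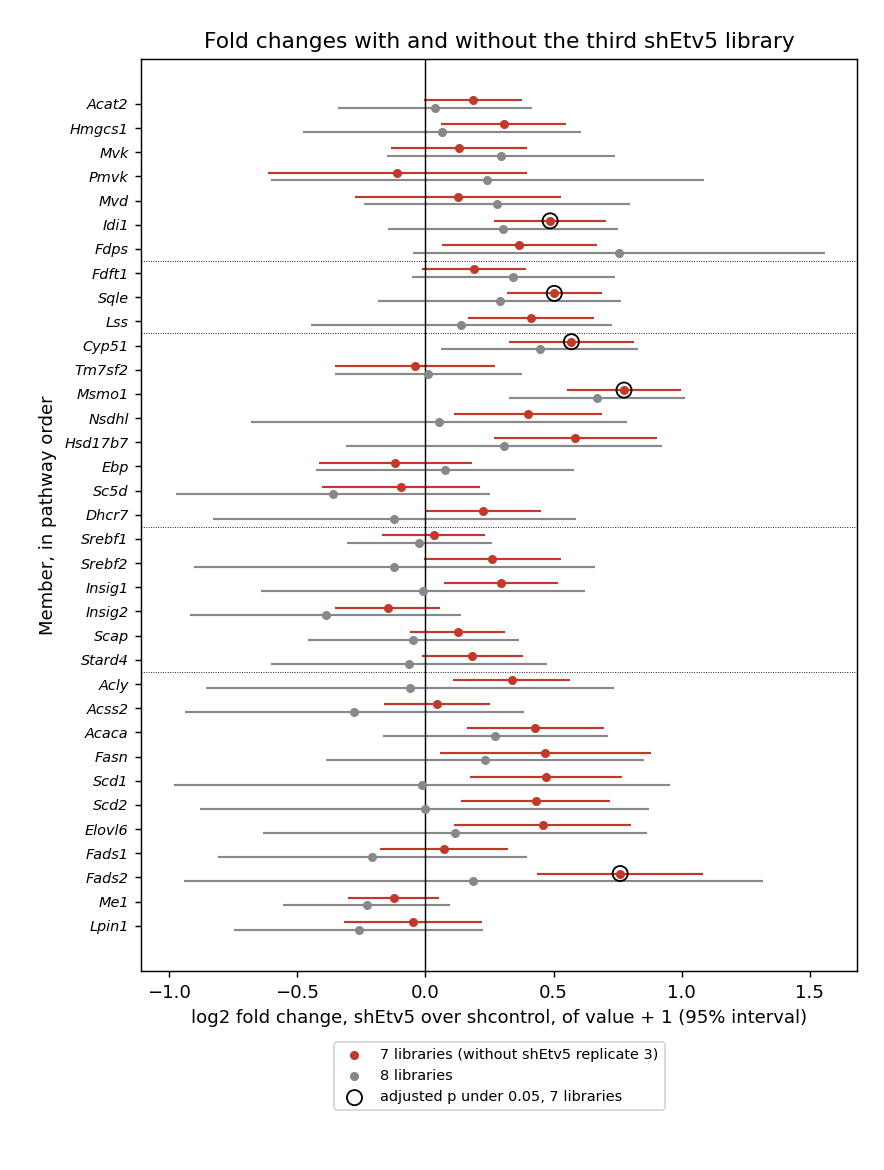
Points are log2 fold changes, shEtv5 over shcontrol, of coverage value + 1 for the 35 genes, with 95% intervals as bars, in red over 7 libraries and in grey over 8. The 5 circled genes passed over 7 libraries, and every grey interval except those of Cyp51 and Msmo1 includes 0.

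In the shcontrol libraries Scd2, Fasn and Acly had the highest mean coverage values per base, at 118 ± 18.6, 44.8 ± 11.1 and 41.4 ± 4.35 (SD, n = 4), and Fasn and Acly did not differ beyond their spread. The lowest were Lss at 2.60 ± 0.387, Lpin1 at 1.51 ± 0.305 and Hsd17b7 at 1.38 ± 0.418 (SD, n = 4), of which the last pair did not differ beyond their spread. The genes that rose had intermediate levels, from 5.25 for Cyp51 to 20.4 for Msmo1. Replicates within a group also moved together. In shcontrol libraries, replicate 3 was the lowest of its group in 18 of the 35 genes and replicate 4 the highest in 19. Among shEtv5 replicates 1, 2 and 4, replicate 2 was the lowest in 22 genes and replicate 4 the highest in 18.

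The members differed in how far shEtv5 replicate 3 departed from the other 3 shEtv5 libraries. It was lower than their mean in 28 of the 35 genes, down to a ratio of 0.180 in Fads2, and higher in 7, up to 3.00 in Fdps. The 7 were Mvk, Pmvk, Mvd, Fdps, Fdft1, Tm7sf2 and Ebp, all of them sterol enzymes. The median difference was -0.94 on the log2 scale over the 35 genes and -0.47 over all 11561 genes with a length. Relative to the shcontrol mean, its median deviation was -0.09 over the 18 sterol enzymes and -1.05 over the 11 fatty acid genes, against -0.49 for all tested genes. The lists overlapped, with sterol enzymes from -1.17 in Sc5d to 1.92 in Fdps and fatty acid genes from -1.53 in Fads2 to -0.20 in Acaca, and the difference was not tested. The other 3 shEtv5 libraries had medians of 0.27, 0.18 and 0.44 over the sterol enzymes and 0.46, 0.38 and 0.39 over the fatty acid genes. Longer transcripts were lower in replicate 3. Spearman's rho of the difference with transcript length was -0.40 across the 35 genes and -0.60 across all, as a description of 1 library in which genes share their depth and preparation. The longest annotated transcripts were 1194 bases for Pmvk and 1743 for Ebp, which were higher in replicate 3, and 10050 for Fasn and 9513 for Acaca, which were lower. The part of transcript length in the difference of single genes was not tested.

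**Figure D5:**
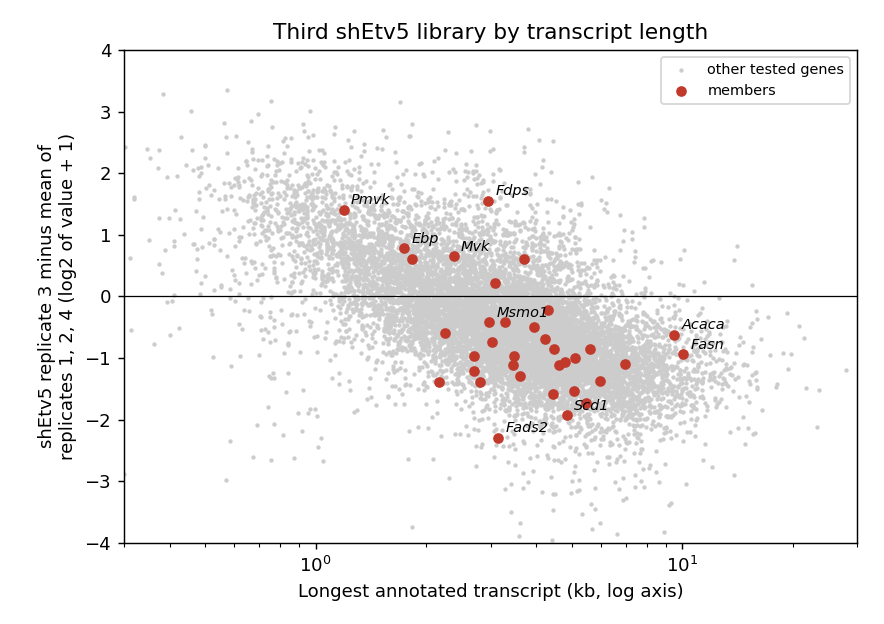
Each point is a gene, with the length of its longest annotated transcript in kilobases (log axis) against the difference between shEtv5 replicate 3 and the mean of shEtv5 replicates 1, 2 and 4 on the log2(value + 1) scale; red points are the 35 genes and grey points the other tested genes, of which 311 lie outside the axes. The short Pmvk and Ebp lie above 0 with Fdps, and the long Fasn and Acaca below 0 with Fads2 and Scd1.

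Of 83 other genes of lipid metabolism, in 6 lists that hold none of the 35, 80 were tested. None passed over 8 libraries, and 1 rose and 3 fell over 7, against 1.08% of all tested genes called higher and 2.06% called lower. These counts are near those shares, so the lists below are described and none is set apart. Of 17 genes of fatty acid elongation and activation, Acsl3 rose and none fell, with a median log2 fold change of 0.06. Acsl3, an acyl-CoA synthetase of the endoplasmic reticulum and lipid droplets, had 10.1, 12.1, 3.92 and 10.5 in shEtv5 libraries, against 7.79, 6.93, 7.23 and 7.92 in shcontrol libraries. Its log2 fold change was 0.49 over 7 libraries and 0.17 over 8, with adjusted p of 0.0273 and 0.893 by limma. Of 11 genes of other isoprenoid branches and 14 of glycerolipid synthesis, none passed in either direction, with medians of 0.10 and 0.03.

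Fatty acid oxidation, the route opposed to synthesis, held 17 genes. Of the 16 tested, 1 fell over 7 libraries and none rose, 14 had negative log2 fold changes, and the median was -0.18. Of all 11715 tested genes, 5921 were negative over 7 libraries, and their median was -0.0029. Over 8 libraries 3 of the 16 were positive, with a median of -0.13 against -0.11 for all tested genes. Cpt1a, the carnitine palmitoyltransferase that admits fatty acids to mitochondria, had 3.41, 3.03, 0.985 and 3.38 in shEtv5 libraries, against 8.81, 7.73, 6.03 and 8.59 in shcontrol libraries. All shEtv5 libraries lay below all shcontrol libraries. Without replicate 3, Cpt1a averaged 3.27 ± 0.211 in shEtv5 libraries (SD, n = 3) and 7.79 ± 1.27 in shcontrol libraries (SD, n = 4), 2.38-fold lower. Its log2 fold change was -1.03 over 7 libraries and -1.31 over 8, with adjusted p of 0.00283 and 0.126 by limma. Leaving out any 1 of the 7 libraries kept the adjusted p between 5.849e-05 and 0.0313.

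Among 16 genes of SREBP processing and sterol handling, Npc2 fell and none rose, with a median log2 fold change of 0.06. Npc2, the lysosomal protein that hands over cholesterol taken up by the cell, had 49.7, 44.7, 88.3 and 50.7 in shEtv5 libraries, against 70.9, 75.5, 95.6 and 67.5 in shcontrol libraries. Replicate 3 of both groups was the highest of its group. The Npc2 log2 fold change was -0.66 over 7 libraries and -0.44 over 8, with adjusted p of 0.0258 and 0.793 by limma. The list of LXR and sterol efflux genes held 8, of which 6 were tested. All 6 had negative log2 fold changes over 7 libraries, with a median of -0.26, and 5921 of all 11715 tested genes were negative there. Over 8 libraries, 3 of the 6 were positive and the median was -0.14, against -0.11 for all tested genes. Of the 6, Mylip fell over 7 libraries, an LXR target that marks a lipoprotein receptor for breakdown. Mylip had 3.25, 3.10, 0.849 and 2.89 in shEtv5 libraries, against 4.72, 4.37, 4.20 and 4.76 in shcontrol libraries, without overlap. Its log2 fold change was -0.43 over 7 libraries and -0.72 over 8, with adjusted p of 0.0335 and 0.533 by limma. Unlike that of Cpt1a, the calls of Acsl3, Npc2 and Mylip were lost without shEtv5 replicate 1, 2 or 4 or shcontrol replicate 1 or 2, and that of Mylip also without shcontrol replicate 4. The adjusted p by limma then reached 0.132 for Acsl3, 0.142 for Npc2 and 0.134 for Mylip. With equal sums, Acsl3 and Mylip also lost their calls, at adjusted p of 0.0746 and 0.165 by limma. With no filter, Npc2 and Mylip lost theirs, at 0.0684 and 0.0518.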

How the data were processed

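The data are 1 table with a row per gene symbol and a column per library. The deposited values are a signal. Each column is named after a coverage track, per the file headers, and its values behave like the average coverage of each gene after depth scaling by the authors. The submitters' processing notes name the aligner STAR 2.7.10a and the mm10 build. Which program averaged the tracks over genes, with what annotation and use of strand, is not stated in those sources. Groups and replicate numbers came from the sample titles.

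Of 24787 rows, 26 with symbols turned into dates were left out, and 7087 were at 0 throughout. Values were transformed as log2(value + 1), which understates the change of low genes; a fold is the mean deposited value of one group over that of the other. The fit took the 11715 genes that reached 0.5 in 4 libraries and used limma 3.58.1 in R 4.3.3, with a mean trend in the prior variance and no covariate. Benjamini-Hochberg adjustment ran over all tested genes, and calls were made at an adjusted p under 0.05. The fit was made over 8 libraries and over 7, on the same genes. It was tested on simulated data. Coverage gives no read counts, so no counting interval is given.

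Gene positions, longest transcripts and sequence shared in stretches of 50 bases came from GENCODE annotation on mm10, and 97.9% of rows had a length. Promoters are from RefSeq, GRCm38.p6. The 35 genes, the 6 related lists, the marker lists and the tests were chosen with earlier results of these data known. All 35 genes are named, with Etv5 and those related genes that passed in either fit, at most 2 per direction and list. Alternatives were 3 other scalings, no filter and a filter at 1, the replicate number as a block, a pseudocount of 0.1, array weights, lowess removal (span 0.3) of each library's length or length and GC trend, and leaving out each library.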

Additional observations from a re-analysis of the deposited data

Results flagged for a closer look

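Within the 70 groups of 4 libraries (35 genes, 2 groups each), 11 held a library far from its other 3 by Dixon's test at its 95% critical value. Chance would flag about 3.5 of 70 if the groups were independent. All genes share the same libraries, so the excess is not a result about these genes. The share over all tested genes is not given. Of the 11, 10 were shEtv5 replicate 3. It was far below the other shEtv5 libraries in Hsd17b7 at 0.630, Stard4 at 2.19, Acly at 16.7, Acaca at 5.33, Scd1 at 1.74, Scd2 at 46.6, Elovl6 at 3.85 and Fads2 at 5.76. It was far above them in Fdps at 81.7 and Fdft1 at 17.04. The remaining library was shcontrol replicate 3, high in Ebp at 14.3.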

How the results depend on the processing

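Over 7 libraries the count of members called higher (5) was 2 with equal sums, 2 with no filter, 8 with quantile normalization, 11 with the length trend removed, 13 with length and GC trends removed and 21 with array weights, which put a weight of 5.03 on shEtv5 replicate 1; leaving out a library gave 1 to 12. All genes called higher (127) were then 65, 94, 167, 429, 643 and 1374 in the same order of settings. Over 8 libraries the count (0) was 1 with median-of-ratios scaling, 2 with the length trend removed, 2 with length and GC trends removed and 17 with array weights, and 0 to 5 when a library was left out, while all genes called higher (1) were 7, 22, 42 and 1046 in the 4 settings. No setting called a member lower. The median log2 fold change over 7 libraries (0.26) was 0.31 with equal sums and 0.21 to 0.33 without a library. Over 8 libraries (0.05) it was 0.20 with median-of-ratios scaling, 0.20 with quantile normalization, 0.22 with array weights, 0.16 with the length trend removed, 0.15 with length and GC trends removed, and -0.028 to 0.26 without a library. Median-of-ratios scaling moved the 8-library median of all genes to 0.02, against -0.11. Relative to all genes, the members' median was 0.09 to 0.26 higher over 8 libraries and 0.20 to 0.33 over 7, over all settings. The causes were not tested.

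Signs turned in 8 of 35 genes over 7 libraries and in 19 of 35 over 8. Over 7 libraries Pmvk was 0.0080 with the replicate block, 0.045 with length and GC trends removed and -0.39 to 0.056 without a library. Tm7sf2 was 0.039 with the replicate block, 0.072 with array weights and -0.13 to 0.089 without a library. Fads1 was -0.018 with the replicate block and -0.018 to 0.13 without a library, and Lpin1 was 0.023 with quantile normalization. Leaving out a library gave -0.066 to 0.31 for Mvd, -0.20 to 0.021 for Sc5d, -0.031 to 0.11 for Srebf1, -0.0071 to 0.10 for Acss2 and, over 8 libraries, -0.018 to 0.76 for Fads2.

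Shared replicate numbers were not taken to pair the libraries, since not every pair of equal number had a correlation of deviations over 0.1. The correlations were 0.55, 0.092, 0.79 and 0.51 for numbers 1 to 4 over 8 libraries, and 0.18, -0.02 and -0.44 for numbers 1, 2 and 4 over 7. With the replicate block, 5 members were called over 7 libraries (shcontrol replicate 3, which has no partner there, drops out of the estimate; Idi1 lost, at an adjusted p of 0.0643 by limma, and Fdps gained; among related genes Acsl3 and Mylip lost, at 0.0726 and 0.0561) and 0 over 8; all genes called went to 80 higher and 211 lower over 7 libraries, against 127 and 241. Depth is unknown, so the counting error of single values cannot be given.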
